A study of Mus musculus with 4 samples.

Results

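The early response genes described here are 9 genes that T cells switch on soon after their antigen receptor is engaged: Egr1, Egr2, Egr3, Nr4a1, Nr4a2, Nr4a3, Ier2, Ier3 and Cd69. They were found by exact gene symbol in a deposited expression table of 17921 genes, and all 9 were present and passed the filter on low counts. They were measured by RNA sequencing in mouse Th17 cells, a CD4+ T cell type named for its cytokine interleukin 17. The KO group came from 2 PRAK KO mice and the WT group from 2 wild-type mice, with 1 library per mouse (called KO 1, KO 2, WT 1 and WT 2 after the mouse numbers). PRAK, a serine/threonine kinase downstream of p38, is the product of Mapkapk5. In both groups naive CD4+ T cells were enriched and kept under Th17-polarising conditions for 72 h (day 3), after which all cells were taken for RNA. No source used here gives the knockout allele, the strain or age of the mice, the stimulus in the culture or any restimulation at the end.

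When the T cell receptor binds antigen, the Ras-ERK pathway and the calcium-calcineurin-NFAT pathway carry the signal to the nucleus. ERK acts through serum response factor (SRF) and its ETS partners, which bind CArG boxes, and through CREB, which binds CRE sites, while calcium acts through NFAT and MEF2. The immediate early genes need no new protein to be switched on, and their transcripts are usually short-lived. The EGR proteins are zinc finger transcription factors, the NR4A proteins are orphan nuclear receptors whose levels follow the strength of the receptor signal, and CD69 is a surface protein that keeps activated lymphocytes in tissue.

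Total expected counts, the authors' estimates of reads per gene, lay between 19418012 and 20125124 per library. Mapkapk5 stood at 20.04 and 21.6 CPM (counts relative to the TMM-scaled library total) in KO cells and at 35.6 and 38.4 CPM in WT cells, lower in KO as labelled but not at 0 (log2 fold change -0.83, adjusted p = 0.0194, with 0.0918 once WT 1 and 0.169 once WT 2 was left out). Unless DESeq2 is named, adjusted p-values of single genes are from edgeR's quasi-likelihood test with Benjamini-Hochberg adjustment. With all 4 libraries they are over the 12680 genes tested, and genes under 0.05 there are said to rise or fall. Fits with 1 library left out were filtered and adjusted anew, over 12982 to 13151 genes. Their p-values take the lone library of a genotype to vary like the other pair, and so hold no spread between its mice. Helper T cell markers were present in every library, with 6 of them (Cd3d, Cd3e, Cd3g, Cd4, Cd28 and Lck) summing to 1907 and 2649 CPM in KO and to 2480 and 2562 CPM in WT. The 2 KO libraries lay further apart (median absolute log2 gap 0.28 over the genes tested) than the 2 WT libraries (0.12).

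Egr1, Egr2 and Cd69 rose in KO cells, Ier3 fell, and 5 of the 9 genes did not pass. Of all genes tested 13.4% were called, 5.14% higher and 8.23% lower in KO, beside 4 of the 9, with 3 higher and 1 lower. Scaling by library size alone put 51.5% of all calls higher in KO, beside 38.5% with TMM, with 0.12 as the median change on the log2 scale over all genes, but left the direction of each of the 9 genes and which were called as they were. The median log2 fold change was 0.71 for the 9 genes and 0.02 for all genes tested, and with KO 2 left out that of the 9 genes was 0.32. KO and WT libraries did not overlap for 6 of the 9 genes (63.0% of all genes tested), 5 of them higher in KO (31.7% of all genes tested were so) and 1 lower (31.4%). In Nr4a1 and Nr4a3 KO 2 stood apart from KO 1.

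**Figure D1:**
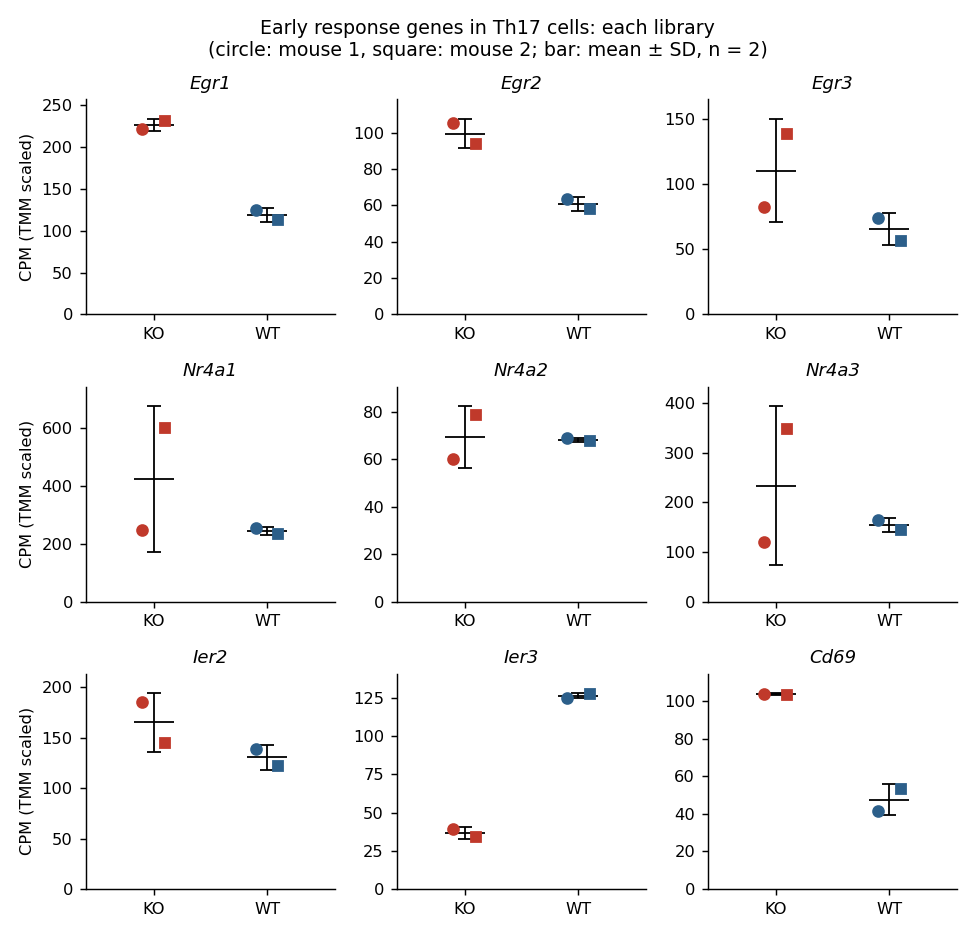
CPM (TMM scaled) of the 9 early response genes in each library, KO left and WT right, with circles for mouse 1, squares for mouse 2 and bars for the mean ± SD (n = 2). Egr1, Egr2 and Cd69 stand higher in both KO libraries and Ier3 lower in both, whereas Nr4a1 and Nr4a3 are high in KO 2 alone.

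Egr1 rose in KO cells. Egr1 encodes the zinc finger factor that gave the family its name, early growth response 1 (gene ID 13653, chromosome 18, 34861207 to 34864956, GRCm38.p6). Its level was 221 CPM in KO 1 and 231 in KO 2, against 124 in WT 1 and 112 in WT 2. Both KO libraries were high, close to each other and clear of both WT libraries. The means were 226 ± 7.02 CPM in KO and 118 ± 8.34 CPM in WT (SD, n = 2 each), a 1.91-fold difference (log2 fold change 0.94 ± 0.12 SE, adjusted p = 0.0104). The adjusted p moved to 0.0487 when WT 1 was left out and to 0.104 when WT 2 was. In these bulk samples more cells expressing a gene and more RNA per cell cannot be told apart, here and for every gene below.

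Egr2 rose as well, by less. Egr2 (gene ID 13654, chromosome 10, 67534469 to 67542188) encodes a factor known to restrain T cell responses and to take part in anergy together with Egr3. Its level was 105 and 93.7 CPM in KO 1 and KO 2, against 63.3 and 57.9 CPM in WT 1 and WT 2. Again both KO libraries lay above both WT libraries, with the KO pair in the opposite order to Egr1. The means were 99.4 ± 8.09 CPM in KO and 60.6 ± 3.86 CPM in WT, a 1.64-fold difference (log2 fold change 0.71 ± 0.12 SE, adjusted p = 0.0238). The call was lost without WT 1 (adjusted p = 0.125) and without WT 2 (0.246), while the log2 fold change stayed between 0.63 and 0.79 whichever library was left out.

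Egr3 (gene ID 13655, chromosome 14, 70077317 to 70082613), the partner of Egr2 in T cell anergy, did not pass the test. KO 1 had 82.3 CPM and KO 2 had 138, against 74.4 in WT 1 and 56.8 in WT 2. The groups did not overlap, but KO 1 lay just above WT 1 and KO 2 well above all others. The means were 110.4 ± 39.7 CPM in KO and 65.6 ± 12.5 CPM in WT (log2 fold change 0.75 ± 0.28 SE, adjusted p = 0.132). Leaving out KO 1 gave a log2 fold change of 1.08, and leaving out KO 2 gave 0.32. DESeq2, which called 18.1% of all genes tested, gave Egr3 an adjusted p of 0.0426.

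Per gene length, Egr1 made up most of the EGR transcripts in nearly all libraries. The summed TPM of Egr1, Egr2 and Egr3 was 261 in KO 1 and 269.9 in KO 2, against 151 in WT 1 and 128 in WT 2. Egr1 gave 55.2% and 52.3% of that sum in KO and 49.3% and 51.0% in WT. The share of Egr3 differed most between the KO mice, at 16.2% in KO 1 and 24.7% in KO 2, against 23.4% and 20.4% in WT. The fourth family gene, Egr4, was close to undetected, at 0.968 and 0.746 CPM in KO against 0.256 and 0.209 CPM in WT (log2 fold change 1.85, adjusted p = 0.0679), and is named after its values were seen.

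The Egr2 promoter is shown because it carries both kinds of site through which ERK signals are known to reach immediate early genes. The sequence is the 250 bases before the annotated start at position 67537869, inside the span given above (chr10:67537619-67537868, plus strand, GRCm38.p6, from RefSeq), with the CArG box and the CRE half-sites in capitals.
Egr2: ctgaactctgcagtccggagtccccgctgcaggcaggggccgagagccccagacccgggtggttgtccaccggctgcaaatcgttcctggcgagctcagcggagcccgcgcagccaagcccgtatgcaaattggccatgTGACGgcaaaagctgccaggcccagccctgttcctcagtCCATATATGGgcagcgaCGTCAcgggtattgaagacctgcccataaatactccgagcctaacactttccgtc
The CArG box spans positions -72 to -63 from the start, and the CRE half-sites (TGACG, either strand) lie at -111 to -107 and -55 to -51. A CArG box on either strand was found in 482 of 32851 such 250-base windows (1.47%), and a CRE half-site in 17.8%. RefSeq gives 5 starts for Egr2, and 4 of their windows hold a CArG box. The windows of the starts at 67537869, 67537870 and 67537930 overlap and hold the same box, and that of 67537566 holds another. The window of the start at 67535499 holds no CArG box but an NF-kB site at -117 to -108. Upstream sequences were matched for 5 of the 9 genes, Egr2, Nr4a1, Nr4a2, Nr4a3 and Ier3, and not for Egr1, Egr3, Ier2 and Cd69. No window of the 5 genes held an AP-1 site (TGANTCA), which 6.75% of all windows did. No matched letters overlapped between motifs, and a match describes the letters alone.

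Nr4a1 and Nr4a3 were high in 1 KO library and within or below the WT libraries in the other, and neither passed the test. Nr4a1 (gene ID 15370, chromosome 15, 101253902 to 101274795) encodes NUR77, widely used as a reporter of receptor signal strength. Its level was 247 CPM in KO 1 and 602 in KO 2, against 255 in WT 1 and 234 in WT 2. KO 1 fell between the 2 WT libraries, and KO 2 stood far above all 3. The means were 425 ± 252 CPM in KO and 244 ± 14.8 CPM in WT (log2 fold change 0.80 ± 0.40 SE, adjusted p = 0.241). The log2 fold change came to 1.30 with KO 1 left out and to 0.01 with KO 2 left out.

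Nr4a3 (gene ID 18124, chromosome 4, 48045078 to 48086447) encodes NOR1, which overlaps with NUR77 in function. Nr4a3 had 121 CPM in KO 1 and 347 in KO 2, against 164 in WT 1 and 144 in WT 2. Here KO 1 was the lowest of the 4 libraries and KO 2 the highest. The means were 234 ± 159.8 CPM in KO and 154 ± 13.7 CPM in WT (log2 fold change 0.60 ± 0.46 SE, adjusted p = 0.425). The direction turned with the library kept, at 1.17 without KO 1 and -0.36 without KO 2.

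Nr4a2 (gene ID 18227, chromosome 2, 57106830 to 57124003), which encodes NURR1, was close to level. Nr4a2 had 60.4 CPM in KO 1 and 78.6 in KO 2, against 68.9 in WT 1 and 67.7 in WT 2, so that the KO pair lay on either side of the WT pair. The log2 fold change was 0.03 ± 0.16 SE (adjusted p = 0.931), and it was 0.20 with KO 1 left out and -0.18 with KO 2 left out. All 3 NR4A genes had KO 2 above KO 1, as did 50.2% of all genes tested, by 2.44-fold for Nr4a1, 2.87-fold for Nr4a3 and 1.30-fold for Nr4a2. The gap between the KO libraries was larger than in 96.0% of the genes tested for Nr4a1 and 97.4% for Nr4a3, but for Nr4a2 than in 63.0%. Between the WT libraries the gap of Nr4a1 was 1.09-fold, that of Nr4a3 1.13-fold and that of Nr4a2 1.02-fold. Egr3 had wide gaps in both genotypes, 1.68-fold between the KO libraries (larger than in 86.8% of genes tested) and 1.31-fold between the WT libraries (88.6%).

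**Figure D2:**
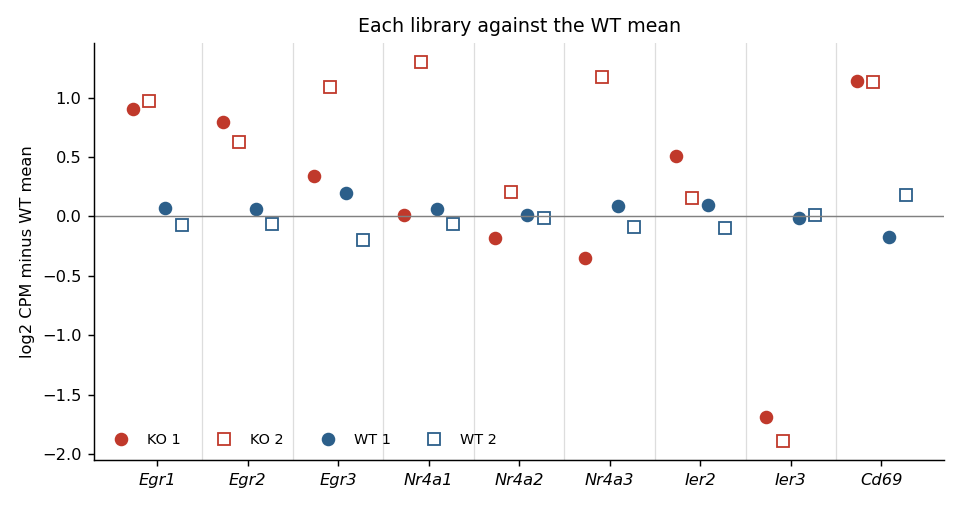
Log2 CPM (prior count 2) of each library minus the mean of the 2 WT libraries, for each gene, with filled circles for mouse 1 and open squares for mouse 2. The KO 2 squares of Egr3, Nr4a1 and Nr4a3 stand above the KO 1 circles, while for Egr1 and Cd69 the KO symbols lie together.

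Per gene length the NR4A sum was 296 TPM in KO 1 and 655 TPM in KO 2, against 303 in WT 1 and 261 in WT 2. Nr4a1 gave 66.4% and 68.5% of it in KO and 61.4% and 63.4% in WT, so the make-up of the family varied less than its sum. Nr4a2 held the smallest share, 12.1% and 6.81% in KO and 12.4% and 13.9% in WT.

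**Figure D3:**
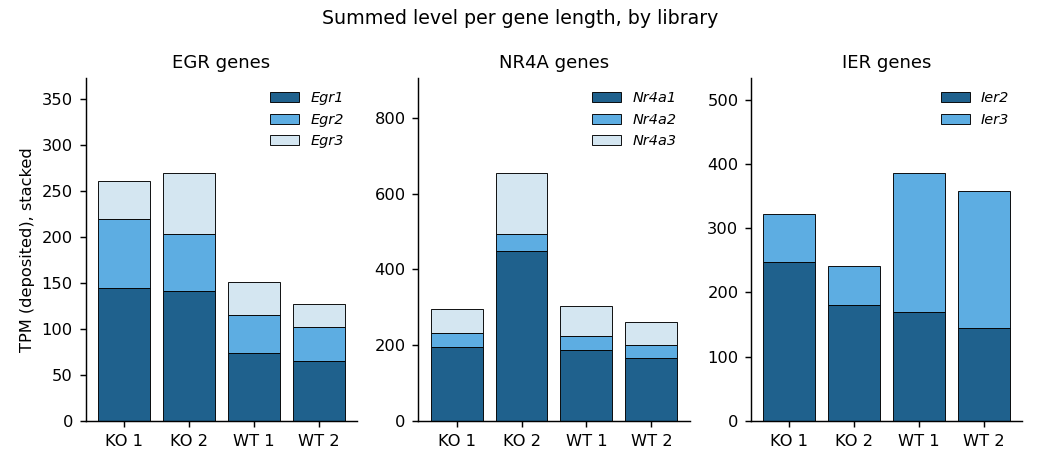
Deposited TPM of the EGR, NR4A and IER genes stacked by library. The EGR sum is 261 and 269.9 TPM in KO against 151 and 128 in WT, the NR4A sum stands out in KO 2 at 655 TPM, and the Ier3 layer is thin in both KO libraries.

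The NR4A promoters are shown because each holds 4 CRE half-sites. The sequences are the 250 bases before an annotated start, from RefSeq and GRCm38.p6, which for Nr4a1 and Nr4a3 lies inside the gene span given above, at chr15:101266596-101266845 (plus strand), chr2:57124004-57124253 (minus strand) and chr4:48045055-48045304 (plus strand). Capitals mark CRE half-sites, written TGACG or CGTCA, and also an EGR site (GCGNGGGCG on either strand) in Nr4a1 and Nr4a2 and a MEF2 site in Nr4a2.
Nr4a1: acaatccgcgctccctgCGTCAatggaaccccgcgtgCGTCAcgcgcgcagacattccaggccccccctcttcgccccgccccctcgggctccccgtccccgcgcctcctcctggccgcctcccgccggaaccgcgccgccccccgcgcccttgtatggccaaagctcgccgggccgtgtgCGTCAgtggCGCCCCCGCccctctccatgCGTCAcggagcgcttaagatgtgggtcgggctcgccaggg
Nr4a2: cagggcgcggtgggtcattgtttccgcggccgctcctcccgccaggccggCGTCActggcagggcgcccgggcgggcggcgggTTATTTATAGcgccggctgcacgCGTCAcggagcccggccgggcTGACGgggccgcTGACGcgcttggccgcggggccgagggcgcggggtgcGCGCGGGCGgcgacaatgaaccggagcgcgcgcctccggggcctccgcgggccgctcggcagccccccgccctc
Nr4a3: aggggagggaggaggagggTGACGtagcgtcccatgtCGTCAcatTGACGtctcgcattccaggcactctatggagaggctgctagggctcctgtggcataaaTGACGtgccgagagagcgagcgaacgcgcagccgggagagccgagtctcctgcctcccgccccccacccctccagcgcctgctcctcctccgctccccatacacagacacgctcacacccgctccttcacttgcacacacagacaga
At least 4 CRE half-sites were found in 45 of the 32851 windows (0.137%). An EGR site was found in 4.70% of windows and a MEF2 site in 2.92%. In Nr4a1 the half-site nearest to the start lies at -40 to -36 and the EGR site at -60 to -52, and in Nr4a2 the MEF2 site lies at -167 to -158. Nr4a3 holds half-sites alone, the nearest at -147 to -143. The log2 fold changes of these 3 genes ran from 0.03 for Nr4a2 to 0.80 for Nr4a1.

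Ier3 fell in KO cells and was the one gene of the 9 to do so. Ier3 (gene ID 15937, chromosome 17, 35821713 to 35822911) encodes a small protein of cell survival, also called IEX-1, whose gene responds to NF-kB. Its level was 39.2 CPM in KO 1 and 34.0 in KO 2, against 125 in WT 1 and 127 in WT 2. Both KO libraries were low and both WT libraries high, with a narrow spread in each pair. The means were 36.6 ± 3.65 CPM in KO and 126 ± 1.55 CPM in WT, and the KO level was 0.290 times the WT level (log2 fold change -1.79 ± 0.13 SE, adjusted p = 0.00284). The call was kept whichever library was left out, with log2 fold changes between -1.89 and -1.69 and adjusted p-values of at most 0.000273.

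Ier2 (gene ID 15936, chromosome 8, 84661331 to 84662852), a nuclear protein gene of the same naming series, did not pass. Its level was 186 CPM in KO 1 and 145 in KO 2, against 139 in WT 1 and 122 in WT 2. The groups did not overlap, but KO 2 was near WT 1. The log2 fold change was 0.34 ± 0.16 SE (adjusted p = 0.216). It came to 0.50 once KO 2 was left out and to 0.15 once KO 1 was. Of the pair, Ier3 made up 23.0% and 24.9% of the summed TPM in KO, against 56.0% and 59.6% in WT.

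The Ier3 promoter is shown as that of the gene that fell. The sequence is the 250 bases before the start (chr17:35821463-35821712, plus strand, GRCm38.p6, from RefSeq), with its NF-kB site in capitals at -92 to -83.
Ier3: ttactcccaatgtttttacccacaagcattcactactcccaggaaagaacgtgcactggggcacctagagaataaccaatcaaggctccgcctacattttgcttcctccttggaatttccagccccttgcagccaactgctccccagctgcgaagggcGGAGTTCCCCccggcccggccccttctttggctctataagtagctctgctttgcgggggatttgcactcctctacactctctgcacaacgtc
It held no CRE half-site, CArG box or EGR site by these letters. An NF-kB site was found in 5.93% of all windows, among them the Egr2 window of the start at 67535499.

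Cd69 rose in KO cells to a like level in both mice. Cd69 (gene ID 12515, chromosome 6, 129267324 to 129275375) encodes a C-type lectin that binds the receptor S1PR1 and so keeps lymphocytes from leaving tissue. Its level was 104 CPM in KO 1 and 103 in KO 2, against 41.7 in WT 1 and 53.3 in WT 2. The spread was narrower in KO than in WT, which held for Egr1 too but for no other of the 9. The means were 103.6 ± 0.447 CPM in KO and 47.5 ± 8.19 CPM in WT, a 2.18-fold difference (log2 fold change 1.12 ± 0.15 SE, adjusted p = 0.0128). Leaving out WT 1 gave an adjusted p of 0.0508 and leaving out WT 2 one of 0.00719. S1pr1 stood at 52.9 and 87.7 CPM in KO and at 93.3 and 100.5 CPM in WT (log2 fold change -0.46, adjusted p = 0.260), and is named after its values were seen.

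**Figure D4:**
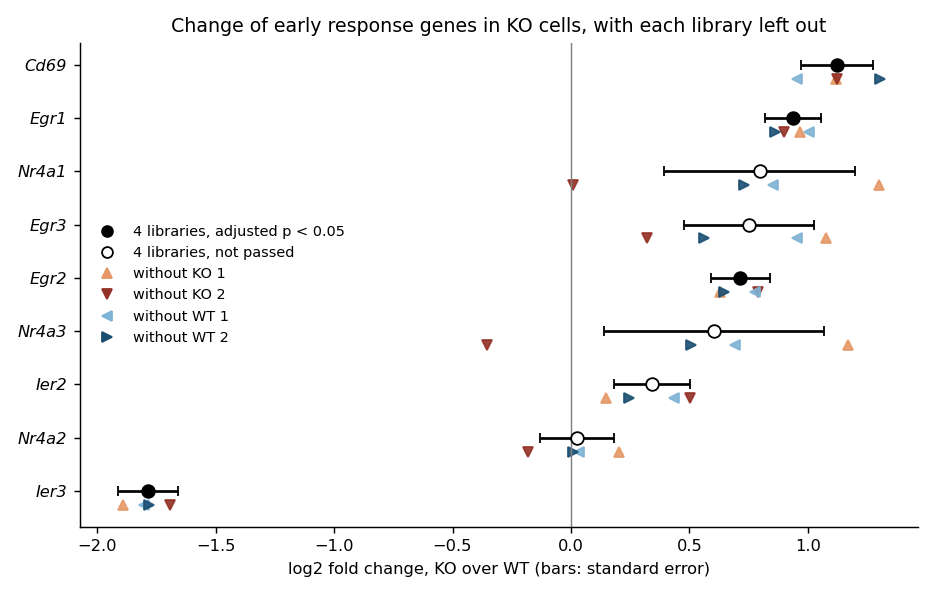
Log2 fold change (KO over WT) of the 9 genes with standard errors, filled where the adjusted p is under 0.05, and below each the value with 1 library left out. Cd69, Egr1, Egr2 and Ier3 keep close to their value, whereas Nr4a1 moves between 0.01 and 1.30 and Nr4a3 between -0.36 and 1.17.

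The order of levels among the 9 genes, per gene length, differed between the genotypes at the top. In KO cells the mean TPM ran from Nr4a1 (323 ± 178), Ier2 (214 ± 47.3), Egr1 (143 ± 2.31) and Cd69 (124 ± 6.30) down to Nr4a3 (113 ± 69.7), Egr2 (68.4 ± 8.91), Ier3 (66.8 ± 9.79), Egr3 (54.5 ± 17.2) and Nr4a2 (40.2 ± 6.22). Nr4a1 and Ier2 overlapped, as did all neighbours from Cd69 downwards. In WT cells Ier3 came first (215 ± 2.27), ahead of Nr4a1 (176 ± 14.7) and Ier2 (157 ± 18.1), which overlapped with each other. Egr1 (69.7 ± 6.51) and Nr4a3 (69.1 ± 14.0) overlapped too, then came Cd69 (52.9 ± 7.99), Egr2 (38.8 ± 3.25) and Nr4a2 (36.9 ± 1.00), the last 2 overlapping, and Egr3 (30.6 ± 6.52).

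Other immediate early genes were called higher in KO more often than lower. Of 34 such genes tested, 10 rose, 2 fell and 22 did not pass (29.4% and 5.88%, beside 5.14% and 8.23% of all genes tested), and their median log2 fold change was 0.34. The 4 with the smallest p-values all rose. They were the stress gene Gadd45b (44.6 and 41.1 CPM in KO, 14.97 and 14.9 in WT, log2 fold change 1.52, adjusted p = 0.00461) and the polo-like kinase gene Plk3 (101 and 83.5 CPM in KO, 34.5 and 31.2 in WT, 1.49, adjusted p = 0.00602). The other two were the AP-1 gene Fosl1 (18.4 and 23.7 CPM in KO, 4.87 and 3.76 in WT, 2.28) and the nuclear I-kappa-B gene Nfkbid (149 and 168 CPM in KO, 73.3 and 68.0 in WT, 1.17), each with an adjusted p of 0.00681. With 1 library left out the log2 fold changes of these 4 ran from 1.08 (Nfkbid) to 2.48 (Fosl1). In each of them both KO libraries lay above both WT libraries, as in 31.7% of all genes tested. Genes picked by small p-values and a rise will mostly show this order.

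Among the rest of that list, named because their count is given, Dusp2, a phosphatase gene that curbs ERK (1.11), and Phlda1 (1.66) rose. With 1 library left out Dusp2 lay at 1.00 to 1.22 and Phlda1 at 1.46 to 1.89. Jun (0.83), Ier5 (1.04), Atf3 (0.90) and Rel (0.99) rose, and Ppp1r15a fell (-0.71), with adjusted p-values from 0.0209 to 0.0450. Scaling by library size alone ended the call of Ppp1r15a (0.0587). Without WT 2 the adjusted p of these 5 was 0.0690, 0.0762, 0.110, 0.110 and 0.199 in that order, and leaving out WT 1 ended the calls of Jun (0.153), Atf3 (0.219), Rel (0.0906) and Ppp1r15a (0.149) too. The AP-1 gene Fosl2 fell (-1.11, adjusted p = 0.0202). Fos, Junb, Myc and Dusp1, which belong to the same first wave, had log2 fold changes of 0.31, -0.08, 0.00 and 0.05 (adjusted p = 0.415, 0.756, 0.992 and 0.891). With KO 1 left out 20 of these genes were called higher and 3 lower (17.3% and 18.7% of all genes then tested), and with KO 2 left out 16 and 5 (22.2% and 24.0%). With WT 1 left out 7 were called higher and 1 lower (1.59% and 3.87% of all genes), and with WT 2 left out 6 and 1 (1.85% and 3.43%).

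**Figure D5:**
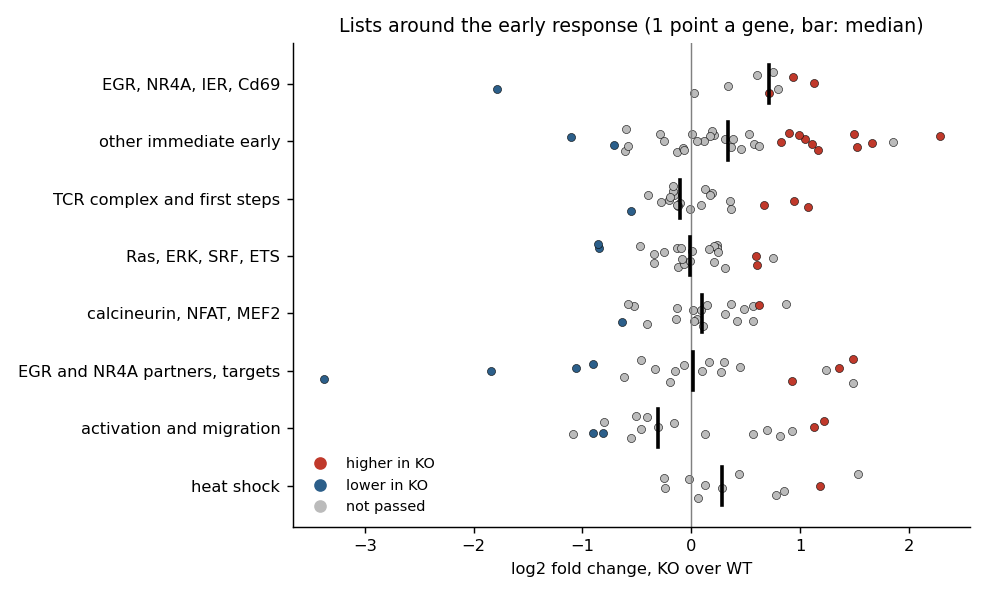
Log2 fold change (KO over WT) of each gene tested in 8 lists around the early response, red where higher in KO and blue where lower at an adjusted p under 0.05, with a black bar for the list's median. The 9 early response genes and the other immediate early genes have medians of 0.71 and 0.34, and the signalling lists have medians between -0.11 and 0.10. The medians are 0.28 for heat shock genes, 0.01 for EGR and NR4A partners and targets, and -0.31 for activation and migration markers.

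Upstream of these genes, the signalling lists were called both ways. Of 21 genes of the receptor complex and first steps 3 rose and 1 fell (14.3% and 4.76%, beside 5.14% and 8.23% of all genes tested), with a median log2 fold change of -0.11. Those counts changed with the library left out, as the counts over all genes did. The median was then 0.07 (KO 1), -0.11 (KO 2), -0.06 (WT 1) or -0.03 (WT 2). Lcp2, which encodes the adaptor SLP-76, stood at 551 and 503 CPM in KO against 272 and 229 CPM in WT (1.07, adjusted p = 0.0137, and 0.130 without WT 2). The inhibitory receptor genes Cd5 (581 and 588 CPM in KO, 319 and 289 in WT, 0.94, adjusted p = 0.0140) and Cd6 (0.67, adjusted p = 0.0473) also rose, and the phospholipase gene Plcg1 fell (-0.56, adjusted p = 0.0379, but 0.0582 under scaling by library size alone). Cd5, Cd6 and Plcg1 lost their calls when WT 1 was left out (adjusted p = 0.0996, 0.327 and 0.403) and when WT 2 was (0.190, 0.382 and 0.296). The receptor chain gene Cd3e had a log2 fold change of -0.17 (adjusted p = 0.561).

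Of 23 genes of the Ras, ERK and SRF route 2 rose and 2 fell (8.70% each, against 5.14% and 8.23% of all genes tested), with a median of -0.01. With 1 library left out the higher and lower counts changed, as those over all genes did. The median was then 0.02 (KO 1), 0.08 (KO 2), -0.06 (WT 1) or 0.04 (WT 2). Map2k1, the gene of the ERK kinase MEK1, fell, with 97.4 and 86.3 CPM in KO against 170.0 and 161 CPM in WT (-0.85, adjusted p = 0.0142). The CREB relative Crem fell as well (-0.85, adjusted p = 0.0167), while the ETS factor gene Elk3 rose (0.60, adjusted p = 0.0296). Leaving out WT 1 gave adjusted p-values of 0.0808 for Map2k1, 0.0613 for Crem and 0.241 for Elk3. Leaving out WT 2 gave 0.0482 for Map2k1, which kept its call, 0.0697 for Crem and 0.408 for Elk3. Of 20 genes of the calcineurin, NFAT and MEF2 route 1 rose, Nfatc1 (0.62, adjusted p = 0.0446), and 1 fell, the calcium channel gene Itpr2 (-0.64, adjusted p = 0.0237), each 5% of the list, with a median of 0.10. These counts too changed with the library left out, and the median was then 0.06 (KO 1), 0.11 (KO 2), 0.12 (WT 1) or 0.06 (WT 2). Scaling by library size alone called 3 higher and 1 lower. Neither passed without WT 1 (adjusted p = 0.247 and 0.209) or WT 2 (0.425 and 0.208). Nfat5 (0.48, adjusted p = 0.0608, but 0.0386 under that scaling) and the calcineurin gene Ppp3cc (-0.53, adjusted p = 0.0681) did not pass.

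Partners and reported targets of the EGR and NR4A factors did not share a direction. Of 20 tested 3 rose and 4 fell (15% and 20%, beside 5.14% and 8.23% of all genes tested), with a median of 0.01. Leaving out 1 library changed the counts, as it did over all genes, and gave medians of 0.21 (KO 1), -0.30 (KO 2), -0.02 (WT 1) and 0.03 (WT 2). Pdcd1, the gene of the inhibitory receptor PD-1, rose, with 90.7 and 107 CPM in KO against 38.0 and 32.5 CPM in WT (1.49, adjusted p = 0.00622), as did Tox2 (0.93, adjusted p = 0.0199) and Tox (1.35, adjusted p = 0.0439). Ndrg1, named as an Egr2 target in T cells and also induced by low oxygen, fell, with 67.8 and 102 CPM in KO against 812 and 949.96 CPM in WT (-3.38, adjusted p = 0.00319). Tnfrsf9 (-1.84, adjusted p = 0.0185), Socs3 (-1.06, adjusted p = 0.0250) and Bcl2l11 (-0.91, adjusted p = 0.0427, but 0.0552 under scaling by library size alone) also fell. Pdcd1, Ndrg1 and Tnfrsf9 passed whichever library was left out. With WT 2 left out the adjusted p was 0.144 for Tox2, 0.0809 for Tox, 0.0588 for Socs3 and 0.130 for Bcl2l11, and with WT 1 left out Tox2 (0.158), Tox (0.0919) and Bcl2l11 (0.0866) did not pass. The EGR corepressor genes Nab1 (0.27, adjusted p = 0.196) and Nab2 (0.16, adjusted p = 0.366) did not pass.

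Activation and migration markers beside Cd69 were also mixed. Of 17 tested, Cd69 included, 2 rose and 2 fell (11.8% each, beside 5.14% and 8.23% of all genes tested), with a median of -0.31. DESeq2 called 5 higher and 5 lower, while it called 18.1% of all genes tested in either direction. Leaving out 1 library changed the counts, as it did over all genes. It gave medians of -0.08 (KO 1), -0.46 (KO 2), -0.36 (WT 1) and -0.27 (WT 2). Cd44, the adhesion receptor gene of activated T cells, stood at 243 and 335 CPM in KO against 120.1 and 128 CPM in WT (1.22, adjusted p = 0.0159). Icos, a costimulatory receptor gene, stood at 222 and 269 CPM in KO against 464 and 454 CPM in WT (-0.90, adjusted p = 0.0199), and S1pr4, which encodes a relative of the CD69 partner S1PR1, fell too (-0.81, adjusted p = 0.0146). Both calls were lost with WT 1 left out (adjusted p = 0.0949 for Icos and 0.0812 for S1pr4) and with WT 2 left out (0.0832 and 0.0815). Il2ra, the interleukin 2 receptor alpha chain gene, did not pass (-0.41, adjusted p = 0.393).

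Markers of other cell types were examined beside the early response genes. The summed level of 16 myeloid markers was 241 and 429 CPM in KO against 129 and 162 CPM in WT. Of the 16, 8 rose (50%, beside 5.14% of all genes tested). Their median log2 fold change was 2.50, and 1.92 to 3.22 with 1 library left out. Both KO libraries lay above both WT libraries in 14 of the 16 and below in 0 (31.7% and 31.4% of all genes tested). Mpeg1 (4.01, adjusted p = 0.00415), Itgax (2.55, adjusted p = 0.0146) and Cybb (2.55, adjusted p = 0.0232) came first by p. Flt3 (-0.13, adjusted p = 0.873) and Cst3 (0.03, adjusted p = 0.896) were close to level. The summed level of 11 CD8 T and NK cell markers was 944 and 536 CPM in KO against 199 and 380 CPM in WT. Of 9 tested 1, Nkg7, rose (11.1%, log2 fold change 1.96, adjusted p = 0.0402). The NK cell genes Klrb1c and Ncr1 were at 0 in 1 or both WT libraries, and the call of Nkg7 was lost with KO 2 (0.106), WT 1 (0.197) or WT 2 (0.110) left out. The summed level of 8 B cell markers was 155 and 136 CPM in KO against 51.1 and 119.9 CPM in WT. Of these 1, Ms4a1, rose (12.5%, log2 fold change 3.43, adjusted p = 0.0102), from a mean of 0.545 CPM in WT. Ebf1 was lower in both KO libraries but did not pass (-0.48, adjusted p = 0.214). The 7 erythroid markers summed to 1.501 and 3.58 CPM in KO against 2.97 and 7.58 CPM in WT, with Hba-a1, Hba-a2, Hbb-bs and Alas2 each at 0 in at least 1 library, and the smallest adjusted p of the 4 tested was 0.160 (Hba-a1).

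The sums of myeloid, helper T cell and erythroid markers were higher in KO 2 than in KO 1, as were Nr4a1, Nr4a3 and Egr3. Those of CD8 T and NK cell, B cell and Th17 markers were lower in KO 2. KO 2 lay above KO 1 in 50.2% of all genes tested, a share that counts the order and not the size of the gap. Th17 markers, 9 in all, summed to 3451 CPM in KO 1 and 1509 in KO 2, against 3627 in WT 1 and 3303 in WT 2, and Ccr6 rose (1.12, adjusted p = 0.00963) while Il23r fell (-1.77, adjusted p = 0.0390, with 0.0763 once WT 1 and 0.0721 once WT 2 was left out). Of 11 heat shock genes tested 1 rose, Hspa1b, at 7.07 and 6.26 CPM in KO against 2.62 and 3.24 CPM in WT (1.19, adjusted p = 0.0436, with 0.351 once WT 1 and 0.224 once WT 2 was left out). In 7 of the 11 both KO libraries lay above both WT libraries, as in 31.7% of all genes tested. The 9.09% called higher stood beside 5.14% of all genes tested. The median was 0.28, and it was 0.08 with KO 1, 0.34 with KO 2, 0.32 with WT 1 and 0.24 with WT 2 left out. DESeq2 called 4 of the heat shock genes higher, while it called 18.1% of all genes tested in either direction. Among the myeloid markers, Fcer1g (0.0698), Lyz2 (0.686), Adgre1 (0.303) and Itgam (0.219) did not pass by adjusted p with WT 1 left out, these last, Fcer1g apart, also not with WT 2 left out (0.712, 0.213 and 0.136), and Cybb did not with KO 1 (0.145) or KO 2 (0.188) left out. The part of these cells and of handling in the changes of the early response genes was not tested.

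The genes most like each early response gene were sought over the 4 libraries among 9821 tested genes that averaged 5 CPM or more. The 9 genes themselves were left out, as were symbols of Gm or LOC with digits and symbols ending in Rik. Likeness was the root mean square difference of log2 CPM centred on each gene's mean. Nearest to Egr1 was Cd5 (0.017), a gene also on the receptor list, and nearest to Egr2 was Mtap (0.016). Egr3 was nearest to Cd40lg (0.066), the CD40 ligand gene, at 72.4 and 120.5 CPM in KO against 59.1 and 50.8 CPM in WT. Nr4a1 was nearest to Tspan2 (0.016), Nr4a2 to Umad1 (0.012) and Nr4a3 to Snai3 (0.044). Ier2 was nearest to Atad2 (0.0089), Ier3 to Nfil3 (0.024) and Cd69 to Crtam (0.057), which stood at 27.3 and 28.8 CPM in KO against 12.2 and 15.1 CPM in WT. Among the 9 genes themselves, Egr1 and Egr2 were nearest to each other (0.14), as were Nr4a1 and Nr4a3 (0.15), and Ier3 was far from all (0.92 to the nearest). With 4 libraries that share 2 genotypes, many genes can have a close pattern, and the values describe these libraries alone.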

How the data were processed

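RNA of Th17 cells from 4 mice was sequenced, and 1 deposited table gives expected counts, FPKM and TPM per gene. Expected counts, estimated reads per gene, were deposited without normalisation, and 69.4% of the values were whole (within 1e-09). FPKM and TPM, per the file headers, are the authors' values relative to gene length and library size. HISAT2 2.0.4, Bowtie2 2.2.5, RSEM 1.2.12 and the build GRCm38.p6 stand in the submitters' processing notes, where their roles and order do not. The kit and strand setting were not given in the sources used here. Reads that match several genes can be divided between them by such estimates, and counts of Egr2, Nr4a2 and Nr4a3 were not whole.

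Expected counts were rounded and genes filtered with filterByExpr (minimum count 10, minimum total 15), leaving 12680 of 17921. KO was compared with WT by edgeR 4.0.16 (R 4.3.3) with TMM scaling and the robust quasi-likelihood test, with genotype as the only term and 2 residual degrees of freedom. The standard error is the size of the fold change over the square root of F. Each mouse was 1 replicate. TPM was used for levels between genes. Coordinates and upstream sequences came from RefSeq (GRCm38.p6), and motifs were searched on both strands of the 250 bases before each start, with the NF-kB, MEF2 and CArG motifs in their degenerate forms.

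The 9 genes and all lists were chosen with earlier results of these data known. The rule for names took the 9 genes, Mapkapk5, up to 4 genes with the smallest p-values in each pathway list, up to 3 in each marker list and the gene nearest in pattern, and the others named were chosen after their values were seen. Some genes of the lists are not reported here by name. The steps were tested on simulated data. Alternatives were other scalings, no filter, no robust estimation, DESeq2 1.42.0, the mouse number as a block, the deposited TPM and FPKM, and leaving out each library.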

Additional observations from a re-analysis of the deposited data

How the results depend on the processing

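Other scalings, no low count filter, no robust estimation and DESeq2 kept the direction of all 9 genes, and their side of the threshold except that DESeq2 also called Egr3 (adjusted p = 0.0426). With 1 library left out, the lone library of its genotype is assumed to vary like the other pair, and calls over all genes (1695, of which 652 higher and 1043 lower) ranged from 693 to 5999, with 209 to 2881 higher and 450 to 3118 lower. Of the 9 genes 2 to 7 were then called, 1 to 6 of them higher and 1 to 2 lower. Signs turned without KO 2 for Nr4a2 (-0.18) and Nr4a3 (-0.36), which with KO 2 kept and another library left out lay at 0.01 to 0.20 and 0.51 to 1.17. The cause was not tested. DESeq2 called 988 genes higher. The replicate block (mouse number beside genotype) called 2935 genes, 1338 higher and 1597 lower, and the same 4 early response genes, and called 4 higher and 5 lower among the activation markers and 5 higher among the heat shock genes. The labels do not say whether mice with the same number were paired, and the deviations of KO 1 and WT 1 had a correlation of 0.17 across genes. Deposited TPM and FPKM moved no KO to WT ratio of the 9 genes by more than its spread. All 9 log2 ratios were higher with both, for Egr1 1.03 with each beside 0.94 from CPM. For Nr4a3 the spread of the log2 ratio was 0.99, so there the comparison says little. With 2 mice per genotype the spread is poorly known, and the 9 genes had 685 to 12121 expected counts per library.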
